A study of Rattus norvegicus with 6 samples.

Results

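Expression of 10 genes of the retinoic acid pathway was examined in H9c2 cells, a clonal rat line derived from embryonic heart that can form muscle-like cells in culture. The 10 genes were chosen by name, and all 10 were found among the 40456 gene symbols of the count table. They encode the retinoic acid receptors (Rara, Rarb, Rarg), the retinoid X receptors (Rxra, Rxrb, Rxrg), the retinol importer Stra6, the intracellular carrier Crabp2, the retinaldehyde reductase Dhrs3 and the retinoic acid hydroxylase Cyp26b1. The study compared 3 libraries of cells given an antisense locked nucleic acid gapmer directed at Tug1, a long non-coding RNA, with 3 libraries of cells given a negative control gapmer. A gapmer is a short oligonucleotide that recruits RNase H to the RNA it pairs with. Both groups were wild type by label, spent 5 days in medium with 1% serum and 1 µM retinoic acid added daily, and then received 25 nM gapmer for 24 h. No library came from cells without retinoic acid, so the response to the ligand itself was not measured, and only 1 gapmer sequence per group was used. The labels do not say whether the 3 libraries of a group were separate cultures, so the p-values measure the spread between these libraries, which may be technical.

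Retinol enters cells in part through Stra6 and is oxidised to retinaldehyde and then to retinoic acid. Dhrs3 works against the first of these steps by reducing retinaldehyde to retinol, and enzymes of the CYP26 family hydroxylate retinoic acid and so start its removal. Crabp2 carries retinoic acid to the nucleus, where receptors of the RAR family bind DNA as heterodimers with RXR receptors at paired copies of a short motif called response elements. RXR receptors also pair with other nuclear receptors. Rarb, Cyp26a1 and Dhrs3 are widely used as readouts of retinoic acid, which in heart and muscle precursors is known for its part in patterning and differentiation.

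The oligonucleotides that define the 2 groups are shown first, 5′ to 3′, as given in the labels' protocols.
Tug1 gapmer: attcagtagacagcta
negative control gapmer: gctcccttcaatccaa
Promoter windows, from 250 bases before to 50 bases after a start site in RefSeq's annotation of the rat assembly GRCr8, were available for all 10 genes, in 11 windows because Rarg had 2. They were searched on both strands for response element forms made of 2 copies of the core motif (AGGTCA or AGTTCA or GGGTCA or GGTTCA) in the same direction with 1, 2 or 5 bases between them (DR1, DR2 and DR5). A DR5 was found in the Rarb window and in no other window of the 10 genes, against 0.382% of all 33469 windows, and DR1 and DR2, present in 0.233% and 0.17% of all windows, were found in none. Among the 72 genes of the wider retinoid lists that had a window, a DR5 was found for Cyp26a1. Both stretches are shown because they are the classical form of element in 2 genes with few counts here, with the repeat and its spacer in capitals. In Rarb (chr15:11336410-11336438, plus strand) the repeat covers bases 25 to 41 counted from the start site as base 1. In Cyp26a1 (chr1:244883724-244883752, plus strand) it reads on the opposite strand and covers bases -92 to -76.
Rarb DR5: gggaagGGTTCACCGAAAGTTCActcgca
Cyp26a1 DR5: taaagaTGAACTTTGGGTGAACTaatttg

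The 250 bases before the start site are shown for Cyp26b1, the gene with the largest change among the 8 tested, and for Rarg, 1 of whose windows held the only AGGTCA core motif among the 10 genes (16.2% of all windows held at least 1). The Cyp26b1 stretch lies at chr4:118616177-118616426 and the Rarg stretch at chr7:135268890-135269139, both on the minus strand of GRCr8. Capitals mark the motif, which reads on the opposite strand as TGACCT and covers bases -225 to -220. A match is a run of letters and not a measured binding site, and a window without one says nothing of elements further away.
Cyp26b1 upstream: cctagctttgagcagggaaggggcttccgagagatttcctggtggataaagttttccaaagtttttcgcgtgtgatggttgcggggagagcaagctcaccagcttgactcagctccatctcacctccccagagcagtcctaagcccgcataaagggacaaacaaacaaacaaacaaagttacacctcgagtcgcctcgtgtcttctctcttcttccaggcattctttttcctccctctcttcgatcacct
Rarg upstream: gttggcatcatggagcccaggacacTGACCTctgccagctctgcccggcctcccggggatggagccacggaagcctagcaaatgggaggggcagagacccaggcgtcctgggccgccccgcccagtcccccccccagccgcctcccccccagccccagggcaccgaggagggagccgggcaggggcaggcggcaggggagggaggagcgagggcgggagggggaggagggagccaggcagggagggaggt

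Total counts were between 12978548 and 13544337 per library, so that 1 CPM (counts scaled to library size) stood for 12.9 to 13.8 counts. Tug1 itself fell from 54.0 ± 1.77 to 11.9 ± 0.609 CPM (SD, n = 3), which follows the labels. The skeletal muscle markers Myog, Myod1, Tnnt1, Tnnt3, Myh3, Myh1, Acta1, Ckm, Cacna1s and Actn3 were all tested. Their summed level rose from 956 to 967 CPM in controls to 1387 to 1472 CPM after knockdown, with 8 genes higher and 2 lower. The 2 lower genes were Myod1 and Myh1 (log2 fold changes -0.32 and -0.76). The label calls the cells cardiomyocytes, but of 12 cardiac markers only Tnnt2, Actc1, Mb and Gata4 had enough counts to be tested, and Myh6, Myh7, Nppa, Nppb, Tnni3, Ryr2, Nkx2-5 and Tbx5 were at or near 0. Tnnt2, Actc1 and Mb were called higher (log2 fold changes 0.24, 0.97 and 0.33). Gata4 went the other way, at -0.26, without a call (edgeR adjusted p 0.0627) and with overlapping groups. The summed cardiac level went from 416 to 447 CPM in controls to 493 to 540 CPM after knockdown. Tnnt2 made up most of this sum, with group means of 349 (control) and 410 CPM (knockdown). The part of the shift in muscle markers in the results below was not tested, and in such bulk libraries fewer cells of a type and less RNA per cell cannot be told apart.

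Of the 10 genes, 8 had enough counts to be tested, and 6 of these were called by the quasi-likelihood test of edgeR, at a Benjamini-Hochberg adjusted p under 0.05 over all 14216 tested genes. All 6, namely Cyp26b1, Rxrb, Rarg, Dhrs3, Rara and Rxra, were higher after knockdown. Rxra, however, was at -0.0165 under a length offset, where length is the genomic span of a gene, introns included. The background was high: 61.7% of all tested genes were called, 30.8% as higher and 30.9% as lower. The 6 genes were also those in which no control library overlapped a knockdown library, which held for 65.6% of all tested genes. The changes were small, with a median absolute log2 fold change of 0.22 for the 6 called genes beside 0.50 for all called genes. Over the 8 tested genes the median log2 fold change was 0.22, beside 0.0043 for all tested genes.

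**Figure D1:**
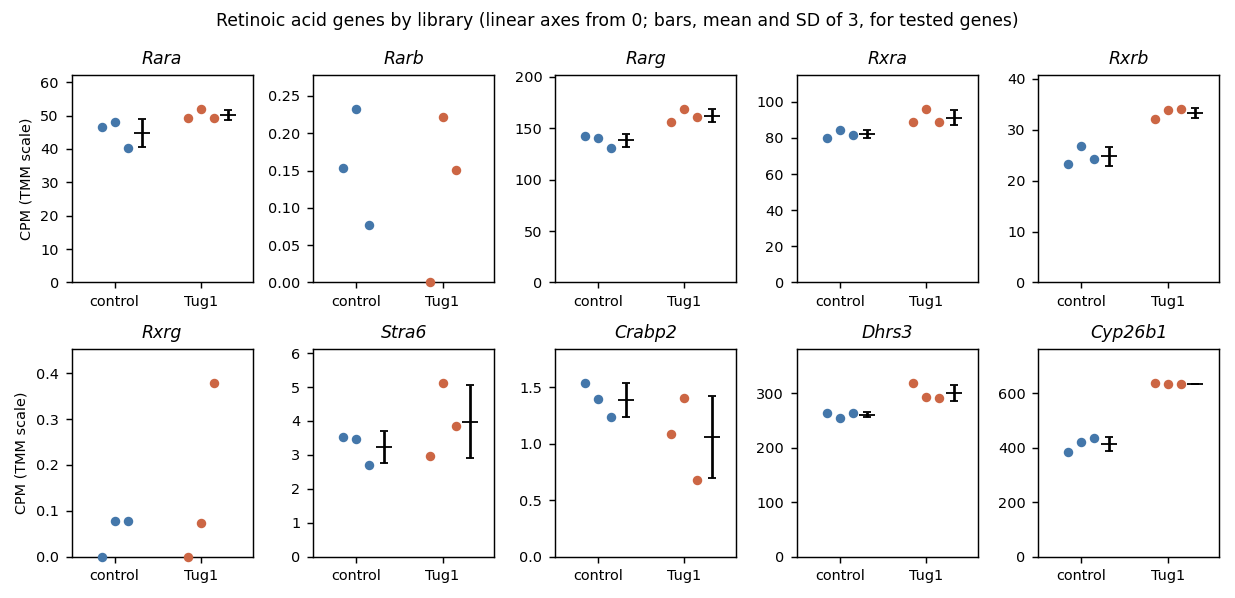
Levels of the 10 genes in each library, in CPM scaled by TMM, with 3 control libraries (blue) and 3 Tug1 gapmer libraries (orange) per panel; bars give the mean and SD for the 8 tested genes, and each panel has its own axis from 0. The groups are apart for Rara, Rarg, Rxra, Rxrb, Dhrs3 and Cyp26b1 and overlap for the other 4 genes. The log2 fold change of Rxra was -0.0165 with an offset for genomic span.

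Among the retinoic acid receptors, Rarg, a ligand-activated transcription factor also known from skin and skeleton, rose. Its levels were 143, 141 and 131 CPM in control replicates 1 to 3 and 156, 168 and 161 CPM in knockdown replicates 1 to 3. Every knockdown library lay above every control library. Its log2 fold change of 0.23 (SE 0.0511) had an edgeR adjusted p of 0.000495 and passed under all 16 alternatives. Rara, the broadly expressed receptor of the family, was at 46.5, 48.0 and 40.2 CPM in controls and at 49.2, 51.9 and 49.3 CPM after knockdown. The groups did not overlap, but control replicate 2 and knockdown replicate 1 were close. Its log2 fold change of 0.16 (SE 0.0692) had an edgeR adjusted p of 0.0492. This call was kept under 5 of 16 alternatives and lost under 11, among them every omission of a library other than control replicate 2. The log2 fold change was 0.0889 without control replicate 3 (edgeR adjusted p 0.27) and 0.14 without knockdown replicate 2 (0.139). It was not smaller, at 0.18, 0.18 and 0.17, without control replicate 1 (0.0585) and without knockdown replicates 1 (0.0532) and 3 (0.0652). DESeq2's Wald test gave 0.106, and the length offset gave a log2 fold change of 0.0829 with an edgeR adjusted p of 0.306.

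Rarb, the receptor gene with the DR5 shown above, was barely detected in cells that had been kept in retinoic acid. Control replicates 1 to 3 held 2, 3 and 1 of its counts, and knockdown replicates 1 to 3 held 0, 3 and 2. All 6 libraries were thus at or under 3 counts, the limit taken for detection, which is 0.217 to 0.232 CPM and covers counting error only. No difference between the groups was detectable at this depth. The ratio of Rarg to Rara counts within a library does not depend on how libraries are scaled. It was 3.07, 2.93 and 3.26 in controls and 3.17, 3.24 and 3.27 after knockdown. The groups overlapped, and the log2 ratio differed by 0.0646 (two-sided exact permutation test, n = 3 per group, p = 0.3).

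The retinoid X receptors differed more among themselves. Rxrb, a broadly expressed partner receptor, was at 23.2, 26.9 and 24.2 CPM in controls and at 32.2, 33.8 and 34.1 CPM after knockdown. All 3 knockdown libraries were above the controls by more than the range within either group. A log2 fold change of 0.43 was fitted (SE 0.0776, 95% interval 0.27 to 0.59), with an edgeR adjusted p of 4.86e-05, and it passed under all 16 alternatives. Rxra, the partner receptor with known roles in the embryonic heart, was at 80.1, 84.4 and 81.6 CPM in controls and at 88.7, 95.9 and 89.0 CPM after knockdown. That is a log2 fold change of 0.15 (SE 0.0548), which passed with an edgeR adjusted p of 0.0189. The call was lost without control replicate 1 (edgeR adjusted p 0.089) and without knockdown replicate 2 (0.1), and the length offset brought the value to -0.0165 (0.806). Rxrg, which is known from skeletal muscle and brain, had 0, 1 and 1 counts in controls and 0, 1 and 5 counts after knockdown. Only knockdown replicate 3 exceeded 3 counts, and the gene was not tested.

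Within a library, the ratio of Rxrb to Rxra counts was 0.29, 0.318 and 0.297 in controls and 0.363, 0.353 and 0.383 after knockdown. The groups did not overlap, and the log2 ratio was higher by 0.28 after knockdown. The two-sided exact permutation test gave p = 0.1 (n = 3 per group), the smallest that 3 against 3 libraries allow, and 0.15 after Benjamini-Hochberg adjustment over the 3 ratios compared. Rxrb touches its neighbour Slc39a7 in the GRCr8 gene table and lies beside Col11a2. Slc39a7, which encodes a zinc transporter, was lower after knockdown (log2 fold change -0.13, edgeR adjusted p 0.0154) and Col11a2, a collagen gene, was higher (2.02, edgeR adjusted p 8.68e-12). Whether reads of these neighbours were counted for Rxrb was not tested, since the use of strand in counting is not given in the sources used here.

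**Figure D2:**
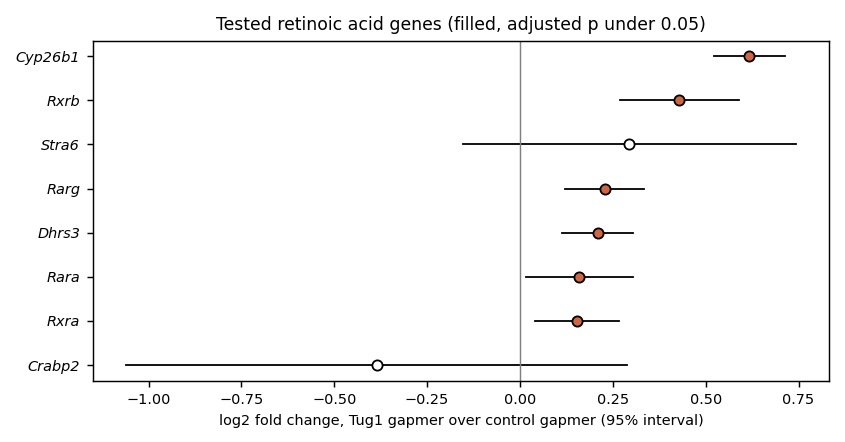
Log2 fold changes of the 8 tested genes, Tug1 gapmer over control gapmer, with 95% intervals from the edgeR fit; filled points were called. The intervals of Crabp2 and Stra6 span 0, that of Rara ends close to it (0.0167), and Cyp26b1 lies highest at 0.62.

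Genes for uptake and transport were low and gave no call. Stra6, the membrane receptor that takes retinol from its plasma carrier, had 46, 45 and 35 counts in controls and 41, 69 and 51 counts after knockdown. Mean levels were 3.24 ± 0.466 CPM in the control group and 3.98 ± 1.07 CPM in the knockdown group (SD, n = 3), and the groups overlapped. The log2 fold change was 0.29 with a 95% interval of -0.15 to 0.74 (edgeR adjusted p 0.246), so neither no change nor a rise of the size seen in Cyp26b1 was outside it. It was 0.0751 without knockdown replicate 2 and 0.47 without knockdown replicate 1, with no call in either. Crabp2, the carrier that hands retinoic acid to its receptors, had 20, 18 and 16 counts in controls and 15, 19 and 9 counts after knockdown. Knockdown replicate 2 lay among the controls. The log2 fold change was -0.39 with a 95% interval of -1.06 to 0.29 (edgeR adjusted p 0.313). It was -0.64 without knockdown replicate 2 and -0.15 without knockdown replicate 3, with no call in either.

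Cyp26b1, whose product clears retinoic acid, had the highest counts of the 10 genes and the largest change of the 8 tested. Its levels were 386, 420 and 436 CPM in control replicates 1 to 3 and 637, 634 and 635 CPM in knockdown replicates 1 to 3. The knockdown libraries were nearly equal, and each was above every control. With 5033 to 5650 counts per control library and 8405 to 8782 per knockdown library, it was also the most precisely counted. The log2 fold change was 0.62 (SE 0.046, 95% interval 0.52 to 0.71), a 1.53-fold rise with an edgeR adjusted p of 7.77e-11. It passed under all 16 alternatives, between 0.57 and 0.67. Among all 14216 tested genes, 3592 had a larger absolute log2 fold change.

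Dhrs3, whose enzyme returns retinaldehyde to retinol, was at 263, 255 and 263 CPM in controls and at 318, 293 and 292 CPM after knockdown. The groups did not overlap, and knockdown replicate 1 was the highest library. Its log2 fold change of 0.21 (SE 0.0462), a 1.16-fold rise, had an edgeR adjusted p of 0.000442 and passed under all 16 alternatives. Per library the ratio of Cyp26b1 to Dhrs3 counts was 1.47, 1.65 and 1.65 in controls and 2.00, 2.16 and 2.17 after knockdown. The log2 ratio was higher by 0.41 after knockdown, without overlap (two-sided exact permutation test, n = 3 per group, p = 0.1, the smallest possible, and 0.15 adjusted over the 3 ratios). Cyp26b1 thus rose by more than Dhrs3 in these libraries, within a test that cannot reach 0.05. The other 2 genes of the CYP26 family, named after their values were seen, were low in every library. Cyp26a1, the other gene with a DR5 in its window, had 10, 10 and 17 counts in controls and 23, 15 and 10 counts after knockdown, and Cyp26c1 had 18, 12 and 23 counts and then 27, 25 and 25 counts. Neither passed (edgeR adjusted p 0.475 and 0.156).

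**Figure D3:**
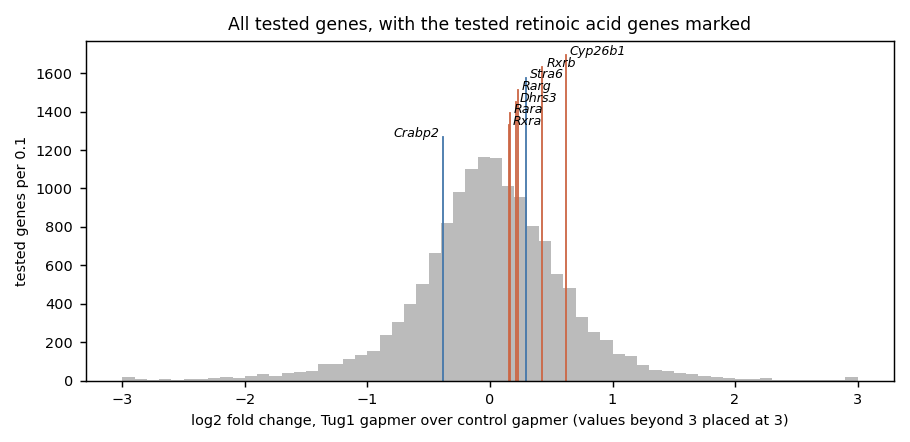
Histogram of the log2 fold changes of all 14216 tested genes (grey, bins of 0.1), with the 8 tested retinoic acid genes as vertical lines, orange where called and blue where not. All 8 lie within the bulk of the distribution, with Cyp26b1 at its 87.0th percentile and Crabp2 at its 21.9th. Rxra is at -0.0165 with an offset for genomic span.

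**Figure D4:**
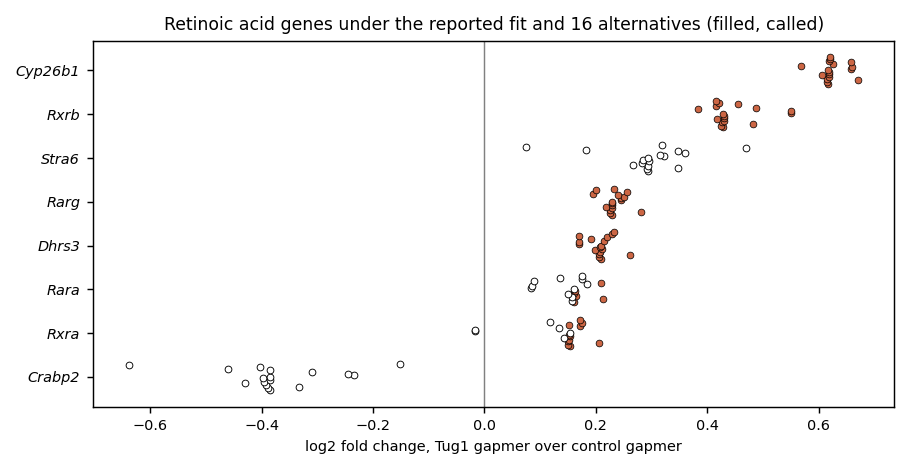
Log2 fold changes of the 8 tested genes under the reported fit and 16 alternatives, 1 point per fit, filled where the gene was called. Cyp26b1, Rxrb, Rarg and Dhrs3 are filled throughout, Rara and Rxra in part, and Stra6 and Crabp2 in none. Rxra is at -0.0165 and -0.0169 with an offset for genomic span.

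The wider pathway was described with 6 lists of 99 genes in all, of which 97 were in the table and 67 were tested. In total 27 of the tested genes were higher and 16 lower, so that 64.2% were called, close to the 61.7% of all tested genes. The synthesis list had 22 genes, 13 of them tested, with 2 higher, 7 lower and 4 not called. Its called share was 69.2%, beside the 61.7% of all tested genes (30.8% higher and 30.9% lower). The list mixes several families of retinoid enzymes and was not sorted by the direction in which each works. The counts on this list are therefore no measure of retinoic acid production. Its median log2 fold change was -0.29, opposite in sign to the 0.22 of the receptor and metabolism genes. Aldh1a3, which oxidises retinaldehyde to retinoic acid, had 87, 86 and 72 counts in controls and 17, 32 and 37 counts after knockdown. Every knockdown library was below the controls, and the change was -1.56 on the log2 scale (SE 0.222, edgeR adjusted p 2.02e-06). Rdh10, which oxidises retinol to retinaldehyde, fell from 15.2 ± 0.462 to 8.41 ± 0.208 CPM (SD, n = 3), or by 0.85 on the log2 scale (edgeR adjusted p 4.85e-07). Adh1, an alcohol dehydrogenase that can use retinol, had 33, 28 and 28 counts in controls and 4, 4 and 2 counts after knockdown. The knockdown counts lay close to the limit of 3 counts, and the gene passed the count filter only through its controls. Pooled over libraries, Adh1 went from 89 to 10 counts, 9.27-fold lower after scaling (edgeR adjusted p 1.84e-07). The exact binomial 95% interval of 4.81 to 20.0 covers counting error only, so the size of the fall is uncertain. The 2 higher genes, named after their values were seen, were Adh7 and Rdh14. Their log2 fold changes were 1.01 (edgeR adjusted p 0.000562) and 0.38 (edgeR adjusted p 0.00171). How these transcripts relate to enzyme activity was not measured.

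The list of retinoic acid breakdown enzymes had 4 tested genes, Cyp26a1, Cyp26c1, Cyp1b1 and Cyp2s1. Of these 0 were called by edgeR, beside 61.7% of all tested genes, and 0 by DESeq2. In either, 0 were at an unadjusted p under 0.05. When no filter was applied, which also takes in Cyp1a1 and Ugt1a1, 1 gene of the list was called. Without control replicate 3, 1 gene had an unadjusted edgeR p under 0.05 and 0 were called. Cyp26b1 is not on that list. On the uptake, storage and binding list 3 of 12 genes were tested and 1 was called, a share of 33.3% beside the same 61.7%. The number was 2 with limma-voom, 2 without control replicate 3, and 0 at a mean of at least 1 CPM. The gene called in the reported fit, Fabp5, is named after its values were seen. Fabp5 is a fatty acid binding protein that can also carry retinoic acid. It had 22, 11 and 17 counts in controls and 0, 0 and 1 counts after knockdown. All of the latter were under the limit of 3 counts, and the gene passed the count filter only through its controls. No fold change is given for it, and its call is not used as support. Rbp4 and Lrat, which transport and store retinol, had 0 counts in all 6 libraries.

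Of 30 genes commonly listed as retinoic acid targets, 22 were tested, 8 were higher, 3 lower and 11 not called, with a median log2 fold change of 0.06. The called share of 50.0% was below the 61.7% of all tested genes. Among those with the smallest p, Lamb1, a laminin chain, was at -0.83 (SE 0.0422) and the orphan receptor Nr2f1 at 0.42 (SE 0.0643). Lamb1 went from 749 ± 13.6 to 423 ± 12.5 CPM and Nr2f1 from 46.0 ± 2.53 to 61.6 ± 3.56 CPM (SD, n = 3). Of the 12 tested Hox genes on the list, 4 were higher, 1 lower and 7 not called, a called share of 41.7% beside the same 61.7%.

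Of the receptors that share RXR as a partner, 9 were tested, 5 were higher and 2 lower, with a median log2 fold change of 0.32. The called share was 77.8%, beside 61.7% of all tested genes, and 5 to 8 were called over the 16 alternatives. Ppard, a fatty acid sensing receptor, rose from 21.5 ± 1.85 to 43.5 ± 4.71 CPM (SD, n = 3), or by 1.01 on the log2 scale (edgeR adjusted p 7.93e-10). The early-response receptors Nr4a1 and Nr4a2 moved apart, at 0.37 and -1.03 (edgeR adjusted p 0.000542 and 5.89e-07). All 16 nuclear receptor coregulators on the list were tested, of which 12 were higher, 3 lower and 1 not called, with a median of 0.25. The called share was 93.8% beside the same 61.7%. Over the 16 alternatives 11 to 15 were called. The number was 11 under the length offset, a fit in which 8132 of all 13084 tested genes were called. The corepressor Ncor1 was at 0.78 (SE 0.0531), and the coactivators Ncoa3 and Ncoa1 were at 0.77 (SE 0.0601) and 0.76 (SE 0.0575). Both kinds of coregulator thus included called rises of like size. Ncoa1 was at 0.39 with the length offset and still passed.

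**Figure D5:**
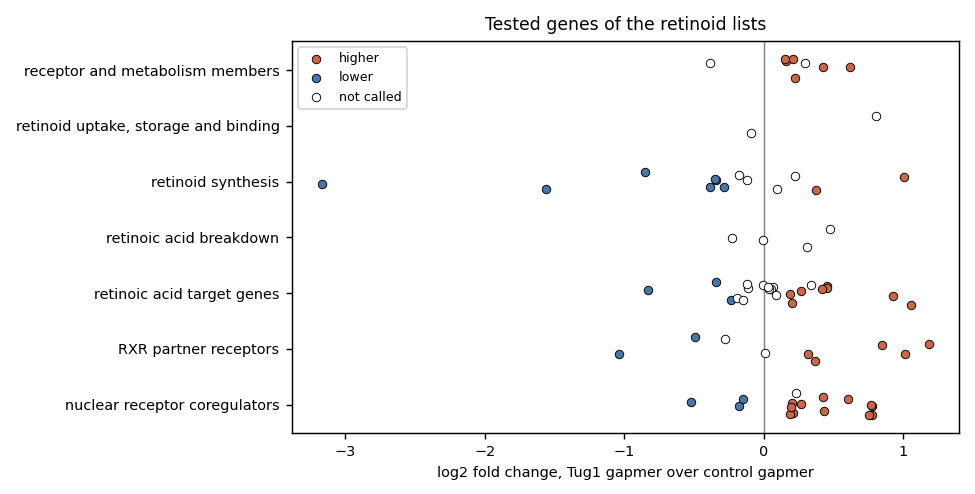
Log2 fold changes (Tug1 gapmer over control gapmer) of the tested genes of the 6 retinoid lists and of the receptor and metabolism genes, 1 point per gene, orange if called higher, blue if called lower and white if not called; vertical scatter within a list is for legibility, and Fabp5, with 0, 0 and 1 counts after knockdown, is left out. The synthesis list has 7 called points on the left and 2 on the right, and the coregulator list 3 and 12. Rxra is at -0.0165 with an offset for genomic span.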

How the data were processed

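Poly-A RNA sequencing libraries were stranded and made from 500 ng RNA, per the labels' protocols. FastQC 0.11.7, fastp 0.14.1 and STAR 2.5 are named in the submitters' processing notes, without their settings. Counting tool, genome build, annotation and use of strand are not given in the sources used here. The values deposited by the authors are raw whole-number counts per gene symbol and library, not pooled. Replicates differed by more than sampling noise, and none was merged.

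The analysis used edgeR 4.0.16 (R 4.3.3) with filterByExpr (minimum count 10, minimum total 15), TMM scaling, and a two-sided quasi-likelihood test of knockdown against control over all 6 libraries without a block (prior count 0.125). Log2 fold changes are knockdown over control, with SE taken as the absolute log2 fold change over the square root of F. A gene was called at a Benjamini-Hochberg adjusted p under 0.05 over all tested genes. CPM values are on the TMM scale. Alternatives were DESeq2 size factors, library totals, DESeq2 1.42.0, limma-voom (limma 3.58.1), no filter, a mean of at least 1 CPM, an adjusted p under 0.01, a replicate block, an offset for genomic span from a lowess trend (span 0.3; GRCr8 spans for 92% of tested genes), and each library left out. The fit was tested on simulated data.

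The 10 genes and all lists were chosen with earlier results of these data known. Besides the 10 genes and Tug1, the 3 genes of each list with the smallest p among called genes with a mean level of 1 CPM or more were named, as were the 3 genes most correlated with the called gene of largest change; other names are marked. A gene that met this rule is counted but not reported here by name. The 3 count ratios were chosen after the counts were seen.

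By their spans in GRCr8, 5 of the 10 genes (Rara, Rarg, Rxrb, Dhrs3 and Stra6) overlap another entry. Protein sequences and transcript lengths were not used here, so levels are not compared between genes.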

Additional observations from a re-analysis of the deposited data

How the results depend on the processing

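All alternatives but 1 were fitted as planned: shares of receptor reads per kilobase were not run, since no transcript lengths were used here, and the 3 ratios of counts within libraries took their place. The number of called genes among the 10 ranged from 4 to 6 over 16 alternatives, all of them higher, and over all genes from 7353 to 8987. Leaving out a library gave 4 to 6 of the 10 genes, 8128 to 8410 genes in all, and -2.22 to -2.15 for Tug1. Rarg, Rxrb, Cyp26b1 and Dhrs3 kept their calls in each alternative, and Stra6 and Crabp2 gained none. Rxra turned from 0.15 to -0.0165 with the length offset and to -0.0169 with the offset and the replicate block, without a call in either. It also lost its call with no filter and at an adjusted p of 0.01. The 12 list genes that met the naming rule kept direction and call in all 192 combinations of gene and alternative. Since that rule took called genes with the smallest p in these same libraries, this is no independent support. Scaling by library totals alone put the median of all tested genes at 0.0571 and 55.8% of called genes were higher instead of 50.0%. Libraries with the same number were not taken as paired, since their deviations across genes had correlations of -0.0053, 0.0298 and 0.027. With the replicate block 6 of the 10 genes were called. Apart from the fewer libraries in the fits that omit one, the cause of these shifts was not tested. Depth limits Rarb, Rxrg, Crabp2 and Stra6.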

Other observations

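Over the 6 libraries, the tested genes whose log2 CPM followed that of Cyp26b1 most closely were Lrrc20, Ahdc1 and Ampd3, with Pearson correlations of 0.99914, 0.99908 and 0.99891. Ampd3, which encodes an AMP deaminase, went from 7.97 ± 1.21 to 25.6 ± 0.814 CPM (SD, n = 3). Lrrc20 went from 18.9 ± 1.28 to 32.6 ± 0.272 CPM and Ahdc1 from 32.9 ± 1.78 to 51.6 ± 0.471 CPM (SD, n = 3). A correlation over 6 libraries in 2 groups mostly restates the group difference, and 236 tested genes reached 0.99 with Cyp26b1.

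Markers of other cell types did not move in 1 direction. Of 6 fibroblast markers 5 were tested, with Dcn higher (0.57) and Col1a1 and Thy1 lower (-0.23 and -0.40). Of 5 immune cell markers Cd14 was lower (-1.03) and Cd68 higher (1.09), while Ptprc, which marks white blood cells, had 0 counts in all 6 libraries. Of 5 endothelial markers only Tek was tested, and it did not pass (edgeR adjusted p 0.279). These markers are named from lists, with values seen.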
